A study of Homo sapiens with 18 samples.

Results

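Replication-dependent histone genes encode most of the H1, H2A, H2B, H3 and H4 protein that packages newly made DNA. Here they were taken as the rows of the deposited count table named H1-1 to H1-5, or H2AC, H2BC, H3C or H4C followed by a number, without pseudogenes. This gave 68 of 41120 gene symbols, namely 5 H1, 17 H2A, 18 H2B, 13 H3 and 15 H4 genes. The choice rests on the symbols and used no measured value. By RefSeq position 54 of them lie on chromosome 6, 13 on chromosome 1 and 1 on chromosome 12.

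The counts came from 18 libraries of 2 established human lines of head and neck squamous cell carcinoma, SCC154-hfm, which carries human papillomavirus, and FADU-hfm, which does not. Both lines carry a hypoxia fate-mapping system, by which a cell that has met low oxygen switches from DsRed to GFP fluorescence. The groups were SCC154 post-hypoxic (GFP-positive, 4 libraries, replicates 2 to 5), SCC154 non-hypoxic (DsRed-positive, 5 libraries), FADU post-hypoxic (GFP-positive, 5 libraries) and FADU non-hypoxic (DsRed-positive, 4 libraries). Cells of all groups had grown as spheroids in low-attachment plates, were dissociated with trypsin and sorted by colour, and were then kept and passaged in normoxic culture. The RNA is therefore from cells after low oxygen, not during it, and line and papillomavirus status cannot be told apart. Nothing in the labels says that replicates were separate sorts or cultures, and a p-value here speaks only of how far these libraries spread, which may be technical.

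In S phase these genes are transcribed together from clusters gathered in nuclear bodies around NPAT. Their usual mRNA has no introns and no poly(A) tail. It ends just after a conserved stem-loop, which the stem-loop binding protein SLBP holds while the U7 snRNP, with LSM10 and LSM11, places the cut. Many of the same genes can also be cleaved further downstream at an ordinary poly(A) signal, which gives a tailed transcript. The libraries here are QuantSeq 3′ libraries, which start from the poly(A) tail, so a count stands for a tailed histone transcript, or for priming at a stretch of A bases. The stem-loop-ended pool is not measured.

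The stem-loop is shown because it is the feature that sets the usual ends of these transcripts apart. A match to the histone stem-loop consensus was found in the GENCODE release 29 transcript models of 31 of the 68 genes, in 6 sequence forms, and in 117 of all 206694 transcripts (0.0566%). In the sites below, written with T as in the models, the capitals mark the stem-loop, and positions are those of the gene in RefSeq on GRCh38.p14. The form of H2BC21 was shared by 17 genes, that of H4C8 by 5, that of H2BC5 by 4 and that of H4C15 by 3. The forms of H3C6 and H2AC11 stood in 1 gene each.
H2BC21, gene at chr1:149884459-149886682, minus strand: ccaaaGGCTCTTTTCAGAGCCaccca
H4C8, gene at chr6:26285126-26285534, minus strand: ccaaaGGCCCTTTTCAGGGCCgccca
H2BC5, gene at chr6:26158121-26171349, plus strand: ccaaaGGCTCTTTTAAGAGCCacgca
H4C15, gene at chr1:149844488-149861240, minus strand: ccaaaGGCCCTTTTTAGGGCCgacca
H3C6, gene at chr6:26224178-26227473, plus strand: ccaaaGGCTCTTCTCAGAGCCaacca
H2AC11, gene at chr6:27133043-27133535, plus strand: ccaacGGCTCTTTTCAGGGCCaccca
In 23 of these 31 genes a model ran at least 100 bases past the stem-loop, by 1729 bases after the site in H2BC21, 1862 in H3C6 and 1314 in H4C15. In the other 8 it ended close to it, 39 bases after the site in H2BC5. The remaining 37 genes had no match in any model, and for 32 of these the models hold the coding sequence alone, so that their 3′ ends are not described there. A poly(A) signal (AATAAA or ATTAAA) lay within the last 40 bases of a model in 23 of the 68 genes.

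Tags were found for 65 of the 68 genes, but 2 genes held most of them. H4C3, which encodes the core histone H4, had 24392 counts over the 18 libraries, and H1-2, which encodes a linker histone, had 16504. Together they made up 74.7% of the 54716 histone counts. Next came H2AC6 with 2383 counts, H2AC25 with 1580 and H2BC12 with 1541. Each tailed transcript gives a tag at its 3′ end, so these counts were not divided by length. On average over the libraries 2 genes reached 100 CPM (counts scaled to the size of the library), 10 had 10 to 100 CPM, 22 had 1 to 10 CPM and 34 were under 1 CPM.

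The genes with no count were H4C6, H2AC7 and H2AC1. A further 18 had 1 to 17 counts in all and 23 had at least 18 counts but did not pass edgeR's filter on low counts. The remaining 24 passed and were tested, among 12291 genes of the table, and held 97.7% of the histone counts. A member could pass through the group in which it was high, so these 24 are not a sample of the 68. By family, 5 of 5 H1 genes were tested, 7 of 17 H2A, 6 of 18 H2B, 3 of 13 H3 and 3 of 15 H4 genes. H4 genes held 45.9% of the counts, H1 genes 34.7%, H2A genes 10.4%, H2B genes 7.69% and H3 genes 1.28%. The untested genes with the most counts were H4C8 (124), H2AC14 (114), H2BC26 (112), H2AC11 (107) and H4C14 (82). In 37 of the 68 genes some 50-base runs of the models are shared with other histone genes or pseudogenes, and in the rest none are. Among untested genes the share was 100% in H3C14, H3C15 and H4C12, 97.5% in H4C14 and 83.7% in H2AC14. Tags of such genes may not be assigned to one copy, so a low count there need not mean a low level.

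**Figure D1:**
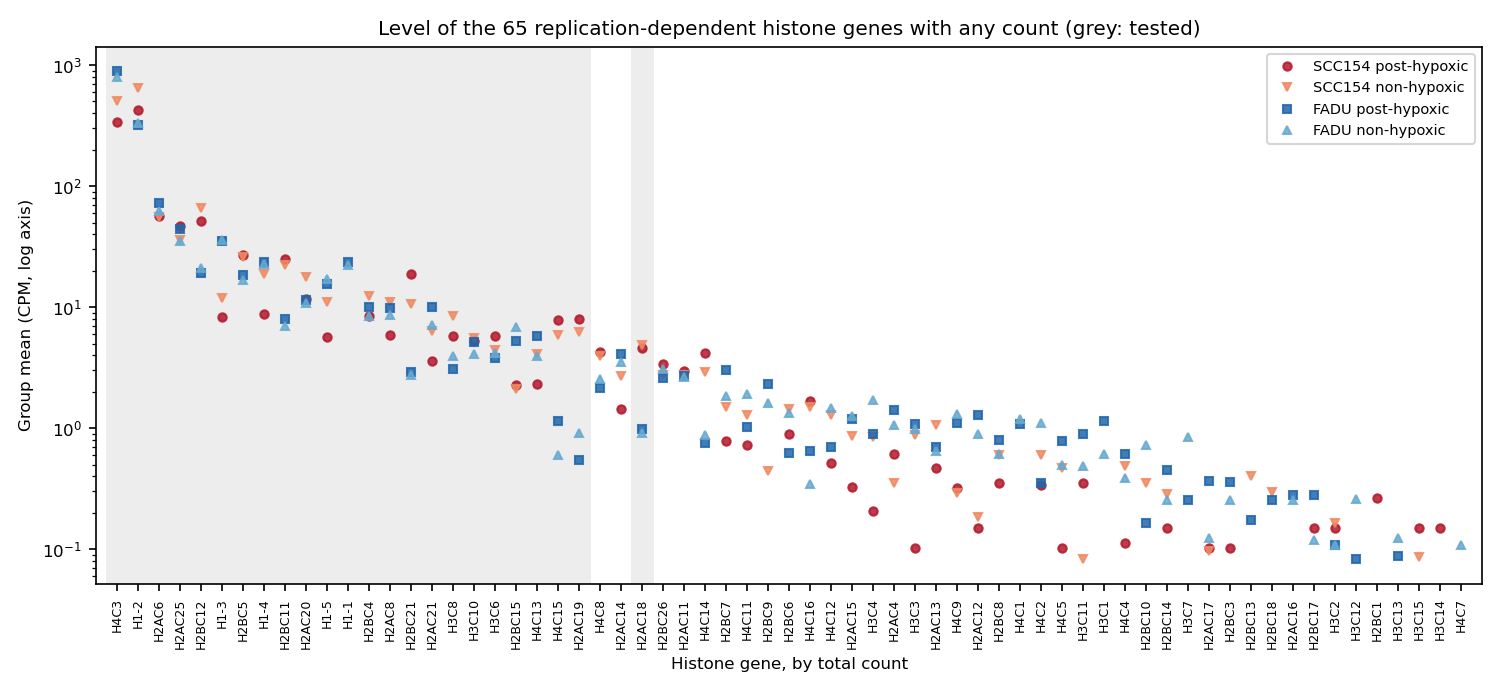
Mean level in CPM (log axis) of each of the 65 genes with any count, by group, ordered by total count, with the 24 tested genes on grey. H4C3 and H1-2 stand above 100 CPM in every group, and most genes to the right of the tested ones lie under 3 CPM; a group mean of 0 is not drawn.

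Library totals were 1654719 to 2503573 counts, so that 1 CPM stood for 1.65 to 2.5 counts. The histone genes took 0.0800 to 0.165% of a library. Their summed level was 967, 1434, 786 and 1248 CPM in the SCC154 post-hypoxic libraries (replicates 2 to 5), against 1428 to 1629.7 CPM in the 5 SCC154 non-hypoxic ones. In FADU it was 1350.2 to 1685 CPM in post-hypoxic and 1178 to 1724 CPM in non-hypoxic libraries. H4C3 and H1-2 together averaged 764 ± 281 CPM in SCC154 post-hypoxic (SD, n = 4) and 1150.4 ± 69.97 CPM in SCC154 non-hypoxic libraries (SD, n = 5). The other 66 genes summed to 345 ± 25.3 and 379 ± 31.9 CPM in these 2 groups. Squamous markers summed to 2805 to 3721 CPM over all libraries and all 13 were tested. Markers of fibroblasts, endothelial cells and immune cells summed to at most 5.8 CPM in any library, with 2 genes of each list at 0 in every group and none tested. Mitochondrial transcripts took 1.67 to 2.66% of a library.

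**Figure D2:**
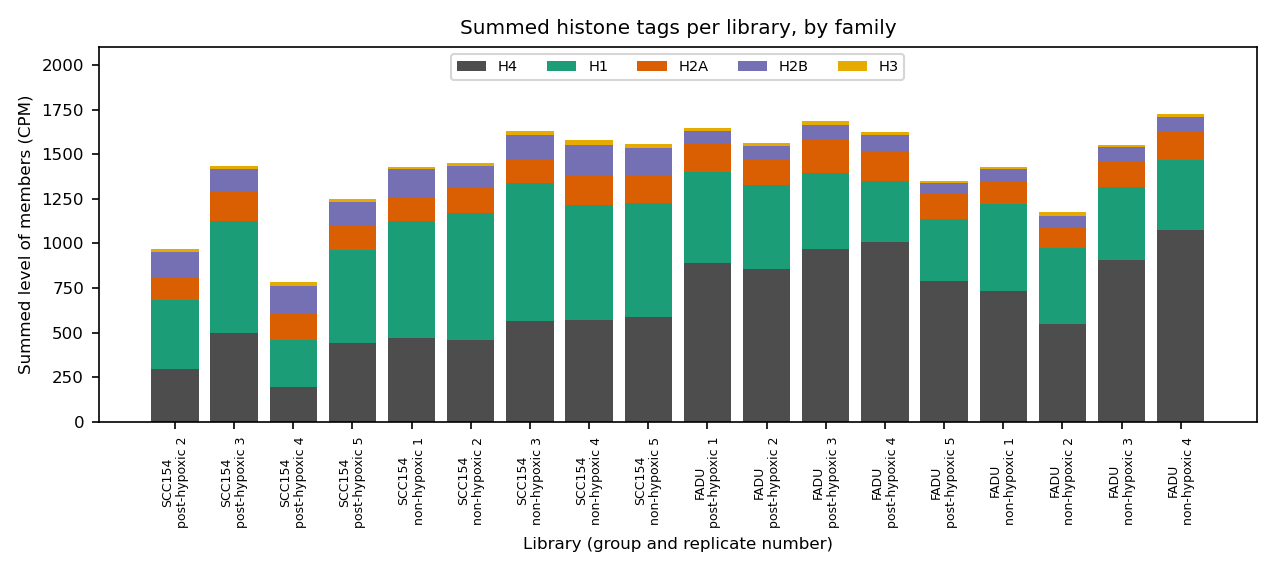
Summed CPM of the 68 histone genes in each of the 18 libraries, stacked by family. SCC154 post-hypoxic replicates 2 and 4 have the shortest bars, with 967 and 786 CPM, and the H2B part is larger in the SCC154 than in the FADU libraries.

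Most H4 genes encode the same core protein, and H4C3 carried nearly all tags of the family. H4C3 had 280.1, 476, 168 and 425 CPM in SCC154 post-hypoxic replicates 2 to 5, against 456, 441, 539, 545 and 564 CPM in the 5 SCC154 non-hypoxic libraries. It had 870.3, 839, 958, 991 and 775 CPM in FADU post-hypoxic and 719, 537, 891 and 1052 CPM in FADU non-hypoxic libraries. Of the SCC154 post-hypoxic libraries replicate 3 lay inside the non-hypoxic range and the other 3 below it, and all 4 lay below every FADU post-hypoxic library. The log2 fold change, post-hypoxic minus non-hypoxic, was -0.60 (SE 0.21, adjusted p = 0.161) by edgeR in SCC154 and 0.15 (SE 0.20, adjusted p = 1) in FADU, neither past the threshold of 0.05. Levels are relative to the library, and in a bulk library fewer cells of a type and less RNA per cell cannot be told apart. Between the lines H4C3 was lower in SCC154 in both states by edgeR, with -1.40 (SE 0.21, adjusted p = 3.33e-06) in post-hypoxic and -0.65 (SE 0.20, adjusted p = 0.00692) in non-hypoxic cells. No run of 50 bases of its model was shared with another histone gene.

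H4C13 and H4C15 were far lower. H4C13 averaged 2.29 ± 2.05 CPM in SCC154 post-hypoxic against 5.74 ± 1.9 CPM in FADU post-hypoxic libraries, and was lower in SCC154 there by edgeR (-1.42, SE 0.47, adjusted p = 0.0107). That call was lost without SCC154 post-hypoxic replicate 2 (adjusted p = 0.0526 by edgeR) or 4 (adjusted p = 0.0551). H4C15 averaged 7.77 ± 5.08 CPM in SCC154 post-hypoxic, 5.93 ± 3.35 CPM in SCC154 non-hypoxic, 1.15 ± 1.6 CPM in FADU post-hypoxic and 0.600 ± 0.598 CPM in FADU non-hypoxic libraries. It was higher in SCC154 by edgeR, with 2.77 (SE 0.66, adjusted p = 0.000656) in post-hypoxic and 3.21 (SE 0.81, adjusted p = 0.00133) in non-hypoxic cells. H4C15 shares 97.2% of the 50-base runs of its models with H4C14 and overlaps H3C15 on the other strand, so its level is uncertain.

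The 5 linker histones H1 bind where DNA enters and leaves the nucleosome, and 4 of them were found in both lines. H1-2 had 371, 586, 260.3 and 489 CPM in SCC154 post-hypoxic and 612, 670.2, 716, 611 and 598 CPM in SCC154 non-hypoxic libraries. The FADU libraries had 398, 357, 326, 266 and 257 CPM in the post-hypoxic and 379.8, 318, 314 and 307 CPM in the non-hypoxic group. All 4 post-hypoxic SCC154 libraries lay below all 5 non-hypoxic ones, yet the difference of -0.59 (SE 0.16, adjusted p = 0.088) by edgeR did not pass the threshold. In FADU the states overlapped, with -0.04 (SE 0.16, adjusted p = 1) by edgeR. Between the lines H1-2 was higher in SCC154, by 0.41 (SE 0.16, adjusted p = 0.0291) in post-hypoxic and 0.96 (SE 0.17, adjusted p = 2.1e-05) in non-hypoxic cells. The post-hypoxic call was lost without SCC154 post-hypoxic replicate 3 (adjusted p = 0.206 by edgeR) or 5 (0.0924) and without FADU post-hypoxic replicate 4 (0.0719) or 5 (0.0744). The model of H1-2 shares no run of 50 bases with another histone gene, and neither do those of the other 4 H1 genes.

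H1-4 and H1-5, 2 further linker subtypes, were both lowest in SCC154 post-hypoxic replicates 2 and 4. H1-4 had 6.55, 14.9, 0.820 and 12.7 CPM in SCC154 post-hypoxic, against 21.7, 13.5, 25.9, 13.9 and 19.5 CPM in SCC154 non-hypoxic libraries. Replicates 2, 4 and 5 were lower than every non-hypoxic library, and replicate 3 was within their range. In FADU H1-4 had 27.8, 22.1, 26.8, 18.98 and 21.6 CPM in post-hypoxic and 29.9, 22.2, 19.97 and 18.9 CPM in non-hypoxic libraries, which overlap. Its log2 fold change was -1.17 (SE 0.36, adjusted p = 0.12) by edgeR in SCC154 and 0.03 (SE 0.30, adjusted p = 1) in FADU. H1-5 had 1.64, 8.35, 1.23 and 11.3 CPM in SCC154 post-hypoxic, against 13.8, 6.28, 13.8, 10.8 and 9.95 CPM in SCC154 non-hypoxic libraries. Replicates 2 and 4 were again below all 5 non-hypoxic libraries, and replicates 3 and 5 within their range. It had 19.6, 18.4, 13.6, 13.2 and 13.2 CPM in FADU post-hypoxic and 17.6, 17.9, 20.96 and 11.9 CPM in FADU non-hypoxic libraries. Its change was -1.01 (SE 0.40, adjusted p = 0.222) by edgeR in SCC154 and -0.14 (SE 0.32, adjusted p = 1) in FADU.

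Between the lines, H1-4 and H1-5 were lower in SCC154 in post-hypoxic cells, where all 4 SCC154 libraries lay below all 5 FADU libraries for both genes. The edgeR values were -1.48 (SE 0.35, adjusted p = 0.000659) for H1-4 and -1.52 (SE 0.38, adjusted p = 0.00123) for H1-5. In non-hypoxic cells neither passed, with -0.28 (SE 0.31, adjusted p = 0.428) for H1-4 and -0.66 (SE 0.34, adjusted p = 0.0878) for H1-5. Whether the line difference itself differed between the states is the interaction, and it passed for neither gene (0.425 and 0.596, adjusted p by edgeR).

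H1-3 was lower in all 9 SCC154 libraries than in any of the 9 FADU libraries. It had 5.32, 17.3, 2.05 and 8.62 CPM in SCC154 post-hypoxic and 5.92, 18.4, 12.7, 9.11 and 13.3 CPM in SCC154 non-hypoxic libraries. Among FADU libraries its levels were 36.5, 47.4, 39.5, 22.3 and 31.2 CPM in the post-hypoxic and 36.6, 35.3, 35.4 and 36.7 CPM in the non-hypoxic group. By edgeR, SCC154 minus FADU was -2.18 (SE 0.34, adjusted p = 5.18e-06) in post-hypoxic and -1.60 (SE 0.31, adjusted p = 8.09e-05) in non-hypoxic cells. Within the lines H1-3 overlapped between states, with -0.61 (SE 0.38, adjusted p = 0.462) in SCC154 and -0.03 (SE 0.28, adjusted p = 1) in FADU by edgeR.

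H1-1, a linker subtype known for its narrow range of tissues, had no count in any of the 9 SCC154 libraries. The FADU values were 32.2, 25.3, 18.6, 19.8 and 22.00 CPM in post-hypoxic and 21.4, 30.5, 19.97 and 16.7 CPM in non-hypoxic libraries. Against a floor of 3 counts over the group, H1-1 was at least 65-fold lower in SCC154 than in FADU post-hypoxic libraries (0 against 253 counts) and at least 75.9-fold lower in SCC154 than in FADU non-hypoxic ones (0 against 186 counts). Both differences passed in edgeR, with adjusted p = 1.32e-09 and 8.86e-10. The floor covers counting error in SCC154 only, and no error of the FADU counts. Within FADU its levels overlapped between states (0.07, SE 0.22, adjusted p = 1, by edgeR). H1-1 lies at chr6:26017032-26017787 on the minus strand (GRCh38.p14). The 2 histone genes next to it on one side, H3C1 and H4C1, also had no SCC154 count, which was seen in the values and is not a choice of the rule. H3C1 starts 2663 bases away, and had 12 counts in FADU post-hypoxic and 5 in FADU non-hypoxic libraries. H4C1 had 12 and 10 counts in these FADU groups. No fold is given for these 2 genes, as the floor leaves out the error of such low FADU counts. Both were below the filter on low counts and, having been picked for their counts, are given without a test. Of the 65 genes with counts, 8 had none in SCC154 and 3 had none in FADU. Besides H1-1, H3C1 and H4C1, those without SCC154 counts were H3C7, H2AC16, H3C12, H3C13 and H4C7, with 10, 5, 3, 2 and 1 counts in all. Those without FADU counts were H2BC1, H3C15 and H3C14, with 2, 2 and 1. At counts this low a 0 in one line is no sign of a difference. How many of all genes had no count in one line was not counted.

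**Figure D3:**
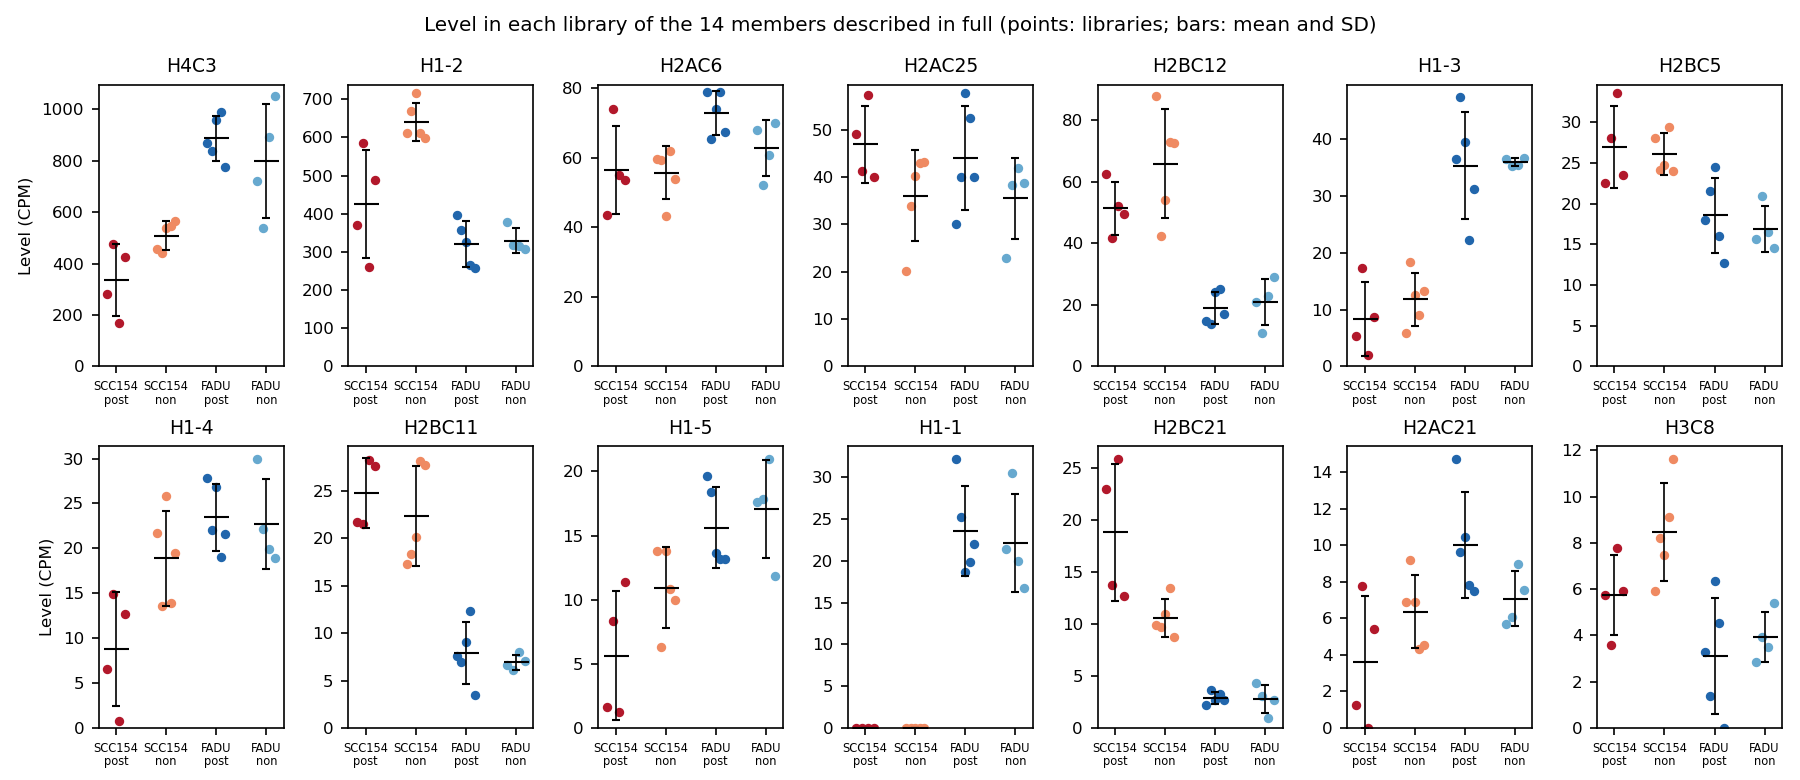
CPM of the 14 genes described library by library, each panel on its own axis from 0, with points for libraries and black bars for the mean and SD of a group. H1-1 is at 0 in all 9 SCC154 libraries, H1-2 separates the SCC154 states, and H2BC11, H2BC12 and H2BC21 are higher in every SCC154 than in any FADU library.

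Among the H2A genes, which encode the partner of H2B in the nucleosome core, H2AC6 and H2AC25 had the most tags and differed little. H2AC6 had 43.4, 73.99, 54.9 and 53.5 CPM in SCC154 post-hypoxic and 59.7, 59.4, 43.1, 62.03 and 53.9 CPM in SCC154 non-hypoxic libraries. In FADU it had 79.02, 65.3, 74.01, 78.8 and 67.3 CPM in post-hypoxic and 67.98, 52.3, 60.9 and 70.1 CPM in non-hypoxic libraries. The states overlapped in both lines, with 0.01 (SE 0.15, adjusted p = 0.997) in SCC154 and 0.22 (SE 0.14, adjusted p = 1) in FADU by edgeR. H2AC6 was lower in SCC154 than in FADU post-hypoxic cells (-0.38, SE 0.14, adjusted p = 0.0224, by edgeR). That call was lost without SCC154 post-hypoxic replicate 2 (adjusted p = 0.119 by edgeR), 4 (0.0509) or 5 (0.0586), and the non-hypoxic difference did not pass (-0.17, SE 0.14, adjusted p = 0.306).

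H2AC25 had 49.1, 41.2, 57.4 and 39.9 CPM in SCC154 post-hypoxic and 20.2, 33.8, 40.3, 42.9 and 43.1 CPM in SCC154 non-hypoxic libraries. The FADU libraries had 29.97, 40.03, 57.7, 52.4 and 40.03 CPM in the post-hypoxic and 22.8, 38.3, 41.9 and 38.8 CPM in the non-hypoxic group. All 4 groups overlapped. By edgeR the change was 0.38 (SE 0.21, adjusted p = 0.393) in SCC154 and 0.32 (SE 0.22, adjusted p = 1) in FADU, and the line difference was 0.09 in post-hypoxic and 0.03 in non-hypoxic cells, with none past the threshold.

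H2AC21 had 1.23, 7.76, 0 and 5.45 CPM in SCC154 post-hypoxic and 6.91, 9.18, 6.9, 4.34 and 4.56 CPM in SCC154 non-hypoxic libraries, so that 1 library, replicate 4, had no count. Among FADU libraries its levels were 14.7, 9.66, 10.4, 7.84 and 7.48 CPM in the post-hypoxic and 5.7, 6.1, 8.98 and 7.55 CPM in the non-hypoxic group. H2AC21 was lower in SCC154 than in FADU post-hypoxic cells, with -1.58 (SE 0.46, adjusted p = 0.00404) in edgeR, although replicate 3 of SCC154 lay above the lowest FADU library. Within the lines it had -0.93 (SE 0.49, adjusted p = 0.363) in SCC154 and 0.49 (SE 0.40, adjusted p = 1) in FADU by edgeR. H2AC21 overlaps BOLA1 on the other strand, and as the strand setting of the counting is not given in the sources used here its level is uncertain.

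H2AC8 and H2AC20 averaged lower in SCC154 post-hypoxic than in SCC154 non-hypoxic libraries, without passing. H2AC8 had 5.9 ± 2.57 CPM in post-hypoxic (SD, n = 4) and 11.1 ± 1.01 CPM in non-hypoxic libraries (SD, n = 5), or -0.93 (SE 0.31, adjusted p = 0.141) by edgeR, and H2AC20 had 11.7 ± 4.004 and 17.9 ± 3.69 CPM, or -0.62 (SE 0.22, adjusted p = 0.176). The 2 groups did not overlap for H2AC8 and did for H2AC20. H2AC8 was lower in SCC154 than in FADU post-hypoxic cells (-0.76, SE 0.31, adjusted p = 0.032, by edgeR). The call was lost without SCC154 post-hypoxic replicate 4 (adjusted p = 0.101 by edgeR) or 5 (0.133) and without FADU post-hypoxic replicate 3 (0.0907) or 5 (0.0801). H2AC20 was higher in SCC154 than in FADU non-hypoxic cells (0.71, SE 0.23, adjusted p = 0.00837, by edgeR). Its level is uncertain, since 30.5% of the 50-base runs of its models are shared and H2AC21 ends 57 bases from its end on the other strand.

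H2AC18 and H2AC19 were higher in SCC154 in both states. H2AC19 averaged 7.99 ± 2.38 CPM in SCC154 post-hypoxic and 0.544 ± 0.360 CPM in FADU post-hypoxic libraries (3.73, SE 0.52, adjusted p = 9.89e-07, by edgeR), and 6.18 ± 2.62 CPM in SCC154 non-hypoxic and 0.908 ± 0.927 CPM in FADU non-hypoxic libraries (2.80, SE 0.53, adjusted p = 5.9e-05). H2AC18 had 2.17 (SE 0.52, adjusted p = 0.000756) in post-hypoxic and 2.47 (SE 0.56, adjusted p = 0.000484) in non-hypoxic cells by edgeR. Of the 50-base runs in their models, H2AC18 shares 100% and H2AC19 97.1% with other histone genes, above all with each other, so tags cannot be assigned to one of the pair with certainty.

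The H2B genes, which encode the partner of H2A, summed to 139 ± 12.3 CPM in SCC154 post-hypoxic and 74.8 ± 11.2 CPM in FADU post-hypoxic libraries (SD, n = 4 and 5), and to 147 ± 23.3 CPM in SCC154 non-hypoxic and 72.6 ± 7.1 CPM in FADU non-hypoxic libraries (SD, n = 5 and 4). In edgeR 5 of the 6 tested H2B genes were called higher in SCC154 in non-hypoxic cells and 4 of 6 in post-hypoxic cells. Over all 12291 genes tested, 34.5% were called higher in the non-hypoxic and 34.8% in the post-hypoxic comparison. The other 12 H2B genes were under the filter, and in the fit without it H2BC9 (adjusted p = 7.42e-06 by edgeR) and H2BC7 (0.00627) were called lower in SCC154 in post-hypoxic cells. H2BC12 had 62.7, 41.8, 52.1 and 49.5 CPM in SCC154 post-hypoxic and 87.9, 42.5, 54.1, 72.9 and 72.6 CPM in SCC154 non-hypoxic libraries. The FADU values were 14.7, 13.8, 24.1, 25.2 and 17.2 CPM in post-hypoxic and 20.9, 10.9, 22.96 and 29.1 CPM in non-hypoxic libraries. Every SCC154 library lay above every FADU library, and edgeR gave 1.43 (SE 0.24, adjusted p = 1.01e-05) in post-hypoxic and 1.67 (SE 0.24, adjusted p = 1.71e-06) in non-hypoxic cells. H2BC12 shares 74.1% of the 50-base runs of its model with other genes, among them H2BC12L and H2BC6, so its level is uncertain.

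H2BC11 had 21.7, 21.5, 28.3 and 27.7 CPM in SCC154 post-hypoxic and 17.3, 18.4, 20.1, 28.2 and 27.8 CPM in SCC154 non-hypoxic libraries. In FADU it had 7.63, 6.9, 9.08, 12.4 and 3.52 CPM in post-hypoxic and 6.66, 6.1, 7.99 and 7.01 CPM in non-hypoxic libraries. The lines did not overlap, and edgeR gave 1.64 (SE 0.24, adjusted p = 1.69e-06) in post-hypoxic and 1.69 (SE 0.26, adjusted p = 3.26e-06) in non-hypoxic cells. Between the states it had 0.14 (SE 0.21, adjusted p = 0.782) in SCC154 and 0.20 (SE 0.29, adjusted p = 1) in FADU by edgeR, while H2BC12 had -0.35 (SE 0.22, adjusted p = 0.447) and -0.12 (SE 0.26, adjusted p = 1).

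H2BC21 had 22.9, 13.7, 25.8 and 12.7 CPM in SCC154 post-hypoxic and 9.87, 9.66, 10.9, 13.4 and 8.71 CPM in SCC154 non-hypoxic libraries. The FADU libraries had 2.18, 3.68, 2.72, 3.3 and 2.64 CPM in the post-hypoxic and 4.28, 3.05, 0.998 and 2.7 CPM in the non-hypoxic group. Between the lines it was higher in SCC154 by 2.68 (SE 0.29, adjusted p = 1.61e-08) in post-hypoxic and 1.90 (SE 0.33, adjusted p = 1.98e-05) in non-hypoxic cells by edgeR. Within SCC154, 3 of the 4 post-hypoxic libraries lay above all non-hypoxic ones and replicate 5 lay below 1 of them. The change of 0.85 (SE 0.24, adjusted p = 0.0878) by edgeR had the lowest p of the tested histone genes in that line and did not pass. In FADU it was 0.07 (SE 0.40, adjusted p = 1) by edgeR. H2BC21 and H2AC20 stand head to head, 235 bases apart, and their estimates in SCC154 had opposite signs, 0.85 and -0.62.

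H2BC5 had 22.5, 28.04, 33.6 and 23.6 CPM in SCC154 post-hypoxic and 28.1, 24.2, 24.7, 29.5 and 24.05 CPM in SCC154 non-hypoxic libraries. Among FADU libraries its levels were 17.98, 21.6, 24.5, 16.1 and 12.8 CPM in the post-hypoxic and 15.7, 20.9, 16.5 and 14.6 CPM in the non-hypoxic group. It was higher in SCC154 by 0.54 (SE 0.18, adjusted p = 0.0112) in post-hypoxic and 0.62 (SE 0.19, adjusted p = 0.00532) in non-hypoxic cells by edgeR, and the post-hypoxic call was lost without SCC154 post-hypoxic replicate 4 (adjusted p = 0.0573). Within the lines it had 0.04 (SE 0.18, adjusted p = 0.939) in SCC154 and 0.13 (SE 0.19, adjusted p = 1) in FADU. H2BC5 overlaps the pseudogene LARP1P1 and an antisense gene, so its level is uncertain. H2BC4 was called higher in SCC154 in non-hypoxic cells alone (0.56, SE 0.24, adjusted p = 0.0455, by edgeR), and leaving out any of 8 single libraries lost that call, with adjusted p of 0.0515 to 0.14.

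Of the 6 tested H2B genes, H2BC15 was the one called lower in SCC154. It averaged 2.27 ± 1.4 CPM in SCC154 post-hypoxic and 5.27 ± 1.3 CPM in FADU post-hypoxic libraries (-1.24, SE 0.44, adjusted p = 0.0147, by edgeR), and 2.12 ± 1.1 CPM in SCC154 non-hypoxic and 6.83 ± 2.85 CPM in FADU non-hypoxic libraries (-1.64, SE 0.41, adjusted p = 0.00124). Without SCC154 post-hypoxic replicate 2 the post-hypoxic call was lost (adjusted p = 0.0755 by edgeR). Its models overlap H2AC15 on the other strand and H2AC16 on the same strand, so its level is uncertain.

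The promoters of H2BC11, H2BC12 and H2BC21 are shown because these 3 genes were higher in every SCC154 than in any FADU library, and that of H1-1 because it had tags in FADU alone. Each runs from 250 bases before to 50 bases after the RefSeq start on GRCh38.p14, 5′ to 3′ along the gene. Capitals mark matches on either strand to the octamer ATTTGCAT, known as the element of H2B promoters that binds OCT1, to CCAAT and to TATAAA, which can overlap.
H2BC11 promoter, chr6:27132746-27133045, minus strand: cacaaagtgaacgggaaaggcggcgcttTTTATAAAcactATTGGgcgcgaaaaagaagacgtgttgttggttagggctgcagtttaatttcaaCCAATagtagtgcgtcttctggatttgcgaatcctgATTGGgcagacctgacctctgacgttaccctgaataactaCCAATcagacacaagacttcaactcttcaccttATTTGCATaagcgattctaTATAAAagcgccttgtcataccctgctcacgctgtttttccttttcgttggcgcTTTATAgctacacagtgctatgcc
H2BC12 promoter, chr6:27146809-27147108, minus strand: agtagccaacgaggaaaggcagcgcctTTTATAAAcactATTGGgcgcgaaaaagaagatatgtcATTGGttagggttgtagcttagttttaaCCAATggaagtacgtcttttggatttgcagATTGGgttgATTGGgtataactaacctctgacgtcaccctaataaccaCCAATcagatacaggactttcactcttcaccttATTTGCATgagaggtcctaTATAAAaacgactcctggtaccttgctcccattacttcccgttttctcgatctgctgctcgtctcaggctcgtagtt
H2BC21 promoter, chr1:149886633-149886932, minus strand: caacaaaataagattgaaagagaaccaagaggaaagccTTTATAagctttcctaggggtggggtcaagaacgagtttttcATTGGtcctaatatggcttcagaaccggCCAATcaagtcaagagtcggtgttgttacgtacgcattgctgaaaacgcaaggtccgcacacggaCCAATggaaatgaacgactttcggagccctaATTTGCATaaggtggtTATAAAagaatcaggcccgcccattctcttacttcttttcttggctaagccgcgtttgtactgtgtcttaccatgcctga
H1-1 promoter, chr6:26017738-26018037, minus strand: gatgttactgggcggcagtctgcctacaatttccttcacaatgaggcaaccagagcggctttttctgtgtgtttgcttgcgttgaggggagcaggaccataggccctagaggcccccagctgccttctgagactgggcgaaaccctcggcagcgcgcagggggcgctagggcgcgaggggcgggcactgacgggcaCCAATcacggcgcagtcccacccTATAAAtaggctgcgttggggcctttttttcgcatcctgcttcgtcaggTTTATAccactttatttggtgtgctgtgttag
The octamer begins 47 bases before the start in H2BC11 and 46 bases before it in H2BC12 and H2BC21, and is not in the window of H1-1. Promoters were found for 63 of the 68 genes. The octamer stood in 14 of 18 H2B, 11 of 16 H2A, 1 of 11 H3, 0 of 5 H1 and 0 of 13 H4 promoters, and in 1.8% of all 27305 promoters. CCAAT stood in 53 of the 63, against 35.7% of all promoters, and TATAAA in 42 of 63, against 12%. A match is a description of the letters and not of binding. The octamer stood in 8 of the 23 tested genes with a promoter, among them these 3 H2B genes, and in 18 of the 40 untested ones. H2AC18, H2AC19 and H4C15 were also higher in SCC154 without overlap of the lines within either state, and their promoters are not shown. How many of all tested genes separate the lines in this way was not counted. By edgeR 69.7% of all tested genes were called between the lines in post-hypoxic and 68.9% in non-hypoxic cells. Whether the octamer goes with the line difference was not tested.

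The H3 genes, which encode the core histone H3, had the fewest tags. H3C8 had 5.73, 3.58, 7.79 and 5.9 CPM in SCC154 post-hypoxic and 5.92, 8.21, 7.48, 9.11 and 11.6 CPM in SCC154 non-hypoxic libraries. The FADU values were 3.27, 1.38, 6.36, 4.54 and 0 CPM in post-hypoxic and 2.85, 3.92, 3.49 and 5.39 CPM in non-hypoxic libraries. It was higher in SCC154 in non-hypoxic cells, where the lines did not overlap (1.13, SE 0.42, adjusted p = 0.0206, by edgeR). The call was lost without SCC154 non-hypoxic replicate 5 (adjusted p = 0.0582 by edgeR) or FADU non-hypoxic replicate 1 (0.057). In post-hypoxic cells it had 0.90 (SE 0.45, adjusted p = 0.0746) by edgeR, and passed without SCC154 post-hypoxic replicate 3 (0.0493) or FADU post-hypoxic replicate 3 (0.0158). Within the lines it had -0.54 (SE 0.38, adjusted p = 0.525) in SCC154 and -0.31 (SE 0.49, adjusted p = 1) in FADU by edgeR. H3C6 and H3C10 averaged 5.72 ± 1.63 and 5.25 ± 1.35 CPM in SCC154 post-hypoxic and 4.43 ± 1.76 and 5.6 ± 1.72 CPM in SCC154 non-hypoxic libraries, and passed in no comparison.

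Post-hypoxic and non-hypoxic cells of one line were compared to ask which histone transcripts still differed after the return to normal oxygen. In SCC154 none of the 24 tested histone genes passed an adjusted p of 0.05 in the quasi-likelihood test of edgeR (Benjamini-Hochberg adjustment over all genes), where 0.757% of all genes tested did (93 of 12291). The lowest adjusted p was 0.0878, DESeq2 called 0 and limma voom called 1, H1-2. With a replicate block within each line, edgeR called H2BC21 higher and H4C3, H1-2, H1-4, H2AC20 and H2AC8 lower. That fit called 1052 of all 12291 genes. Same-numbered SCC154 libraries were not taken as pairs, since their correlations went down to 0.03. That choice rests on the lowest pair of each line alone. The ranges overlapped, with 0.03 to 0.4 in SCC154 and 0.18 to 0.45 in FADU. In either line 3 of 4 post-hypoxic libraries with a same-numbered partner correlated best with it, so the check does not clearly separate the lines. Without a filter on low counts, 3 of 65 passed in edgeR, and 291 of all 22591 genes with counts did. The 3 were all lower, H1-2 (adjusted p = 0.00165 by edgeR), H4C3 (0.00285) and H1-4 (0.00491). Their estimates hardly moved, with -0.586, -0.594 and -1.162 against -0.591, -0.599 and -1.167 in the filtered fit. The counts are the same, so the lower p is no separate evidence. At an unadjusted p under 0.05 there were 8 of the 24 and 1930 of all 12291 genes. Estimates were above 0 for 9 and below 0 for 14 genes, with a median log2 fold change of -0.23 against 0 over all genes, and H1-1 had no count to compare. The H1 genes with counts were all below 0, with -0.59, -0.61, -1.17 and -1.01 for H1-2, H1-3, H1-4 and H1-5. Single libraries weighed on this: without SCC154 post-hypoxic replicate 3, edgeR called 3 histone genes, H2BC21 (adjusted p = 0.0477) higher and H1-2 (0.0215) and H1-4 (0.0479) lower, among 163 genes in all. Without replicate 5 it called H2BC21 (adjusted p = 0.0369) higher and H1-5 (0.0463) lower, among 190 genes in all. SCC154 post-hypoxic replicate 4 was the lowest of the 9 SCC154 libraries for 8 of 23 genes and the highest for 8 others.

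In FADU none of the 24 passed by edgeR, and none of the 12291 genes did (0%). At an unadjusted p under 0.05 there were 0 of the 24 and 298 of all genes, and DESeq2 and limma voom called 0 histone genes. Estimates were above 0 for 16 and below 0 for 8, with a median of 0.10 against -0.00349 over all genes. The difference between the lines in the post-hypoxic effect (the interaction) was called for 0 of the 24 and for 0.0163% of all genes by edgeR, with a lowest adjusted p of 0.394 among the histone genes. At an unadjusted p under 0.05 there were 8 of the 24 and 1202 of all genes. DESeq2 and limma voom called 0, and edgeR without a filter called 1, H4C3 (adjusted p = 0.0289), with 51 of all 22591 genes called. With a replicate block within each line, edgeR called H4C3 and H1-2 lower, with 224 of all genes called. Same-numbered SCC154 libraries were not taken as pairs. The SCC154 estimate was below that of FADU for 18 of the 23 genes with counts in both lines, among them H4C3 (-0.75, SE 0.29, adjusted p = 0.421, by edgeR), H1-4 (-1.20, SE 0.47, adjusted p = 0.425) and H2AC21 (-1.42, SE 0.63, adjusted p = 0.484).

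The SCC154 estimates also differed by the kind of transcript model, a split made with the values known and given without a test. For the 10 tested genes with SCC154 counts and no poly(A) signal in the last 40 bases of any model, all 10 estimates were below 0, from -1.17 to -0.35 with a median of -0.77. These are H4C3, H4C13, H1-2, H1-3, H1-4, H1-5, H2AC8, H2AC20, H2AC21 and H2BC12. For all of them but H4C3, H1-4 and H2AC8 the models hold the coding sequence alone, so that a signal could not be seen, and the split is largely one of annotated against unannotated 3′ ends. For the 13 tested genes with such a signal, 9 estimates were above and 4 below 0, from -0.56 to 0.85 with a median of 0.04. In FADU the 2 sets had medians of 0.07 (11 genes, with H1-1) and 0.20 (13 genes). The annotation used for counting is not given in the sources used here, so the models read here may not be those that received the tags.

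**Figure D4:**
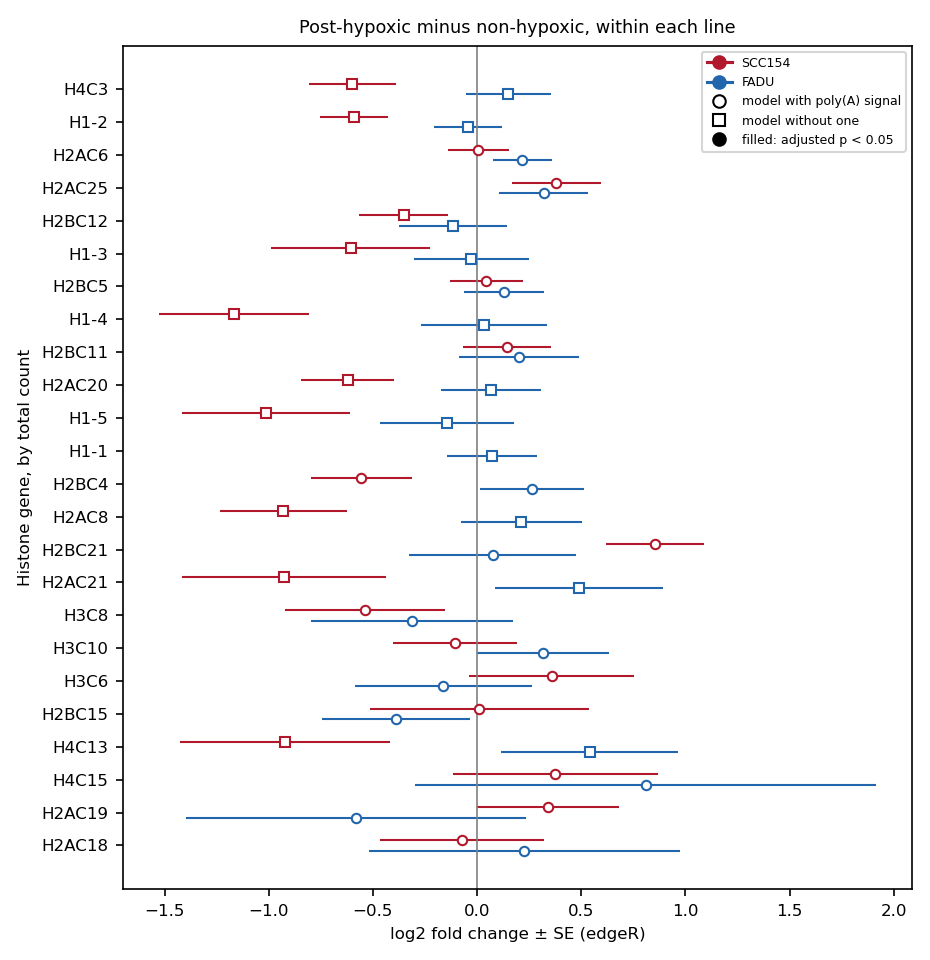
Log2 fold change with its SE from edgeR, post-hypoxic minus non-hypoxic, for the 24 tested histone genes in SCC154 (red) and FADU (blue), with circles for genes whose models carry a poly(A) signal and squares for those in whose models none was found, most of which hold the coding sequence alone. No marker is filled, since none passed the threshold; the red squares all lie below 0, and H1-1 has no SCC154 point.

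Between the lines, SCC154 minus FADU, 18 of the 24 were called by edgeR in post-hypoxic cells, 8 higher and 10 lower, or 75% where 69.7% of all tested genes were called (34.8% higher and 34.9% lower). In non-hypoxic cells 15 were called, 11 higher and 4 lower, or 62.5% where 68.9% of all genes were called. These shares are near those of the whole table. The median log2 fold change was 0.03 in post-hypoxic and 0.42 in non-hypoxic cells, against 0.01 and -0.01 over all genes. With no filter on low counts, over the 65 histone genes with any count, the median was -1.14 in post-hypoxic and -0.17 in non-hypoxic cells (0 over all genes), so the sign in both states turns with the filter. Fitted changes of genes with no count in a group depend on the prior count and give no bound. That fit called 28 of 65 in post-hypoxic cells, 11 higher and 17 lower, and 19 in non-hypoxic cells, 11 higher and 8 lower. Over all 22591 genes with counts it called 10106 in post-hypoxic and 9798 in non-hypoxic cells. In both states of the filtered fit H1-2, H2BC5, H2BC11, H2BC12, H2BC21, H2AC18, H2AC19 and H4C15 were called higher in SCC154, and H4C3, H1-1, H1-3 and H2BC15 lower. H1-4, H1-5, H2AC6, H2AC8, H2AC21 and H4C13 were called lower in post-hypoxic cells alone, and H2AC20, H2BC4 and H3C8 higher in non-hypoxic cells alone. For these 9 the difference between the states is again the interaction, which was called for none.

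**Figure D5:**
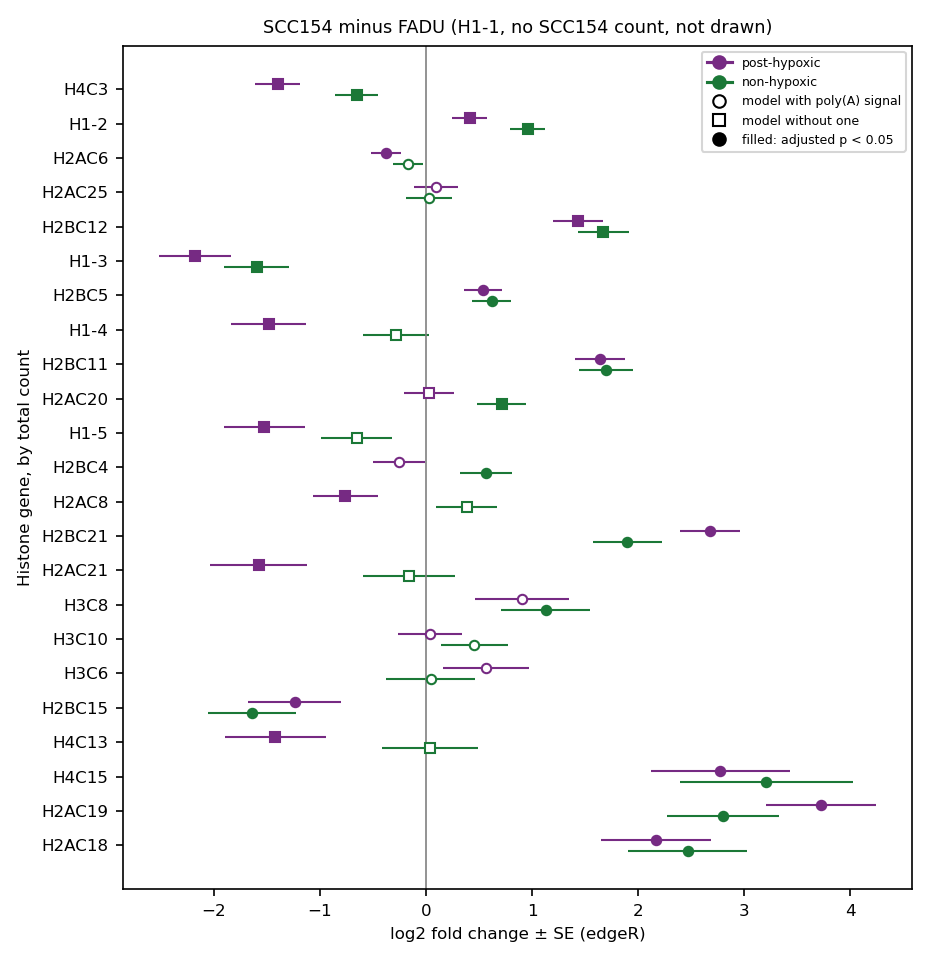
Log2 fold change with its SE from edgeR, SCC154 minus FADU, in post-hypoxic (purple) and non-hypoxic (green) cells, with filled markers for an adjusted p under 0.05 and shapes as for the models with and without a poly(A) signal. H2BC11, H2BC12, H2BC21, H4C15, H2AC18 and H2AC19 lie above 1 in both states and H1-3 and H2BC15 below -1; H1-1 is not drawn.

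The machinery that makes histone 3′ ends was read beside them. Of 24 genes for 3′ processing and cluster transcription 23 were tested, and none was called within a line by edgeR. In SCC154 8 were above and 15 below 0 (median -0.05). SLBP averaged 68.8 ± 17.3 CPM in SCC154 post-hypoxic, 62.1 ± 7.08 CPM in SCC154 non-hypoxic, 83.1 ± 6.8 CPM in FADU post-hypoxic and 81.6 ± 11.4 CPM in FADU non-hypoxic libraries. Its change was 0.16 (adjusted p = 0.64 by edgeR) in SCC154 and 0.03 (adjusted p = 1) in FADU. The list's lowest p in SCC154 belonged to UPF1, which acts in the decay of histone mRNA, with -0.45 (adjusted p = 0.123 by edgeR), and to NCBP2, a cap-binding subunit, with -0.45 (adjusted p = 0.129). Between the lines 7 were higher and 9 lower in post-hypoxic cells, and 7 higher and 8 lower in non-hypoxic cells, where about the same share of all genes was called (69.7% and 68.9%). ERI1, an exonuclease that trims the histone stem-loop, was higher in SCC154 (1.12 in post-hypoxic and 1.1 in non-hypoxic cells, adjusted p = 1.71e-07 and 3.58e-07 by edgeR), and SNRPF, a Sm-ring protein, was lower (-1.09 and -1.14, adjusted p = 4.54e-10 and 1.29e-10).

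Many replication-independent histones are made from ordinary tailed mRNAs throughout the cycle. Of 19 genes listed under that name with a row 11 were tested and none passed within a line. MACROH2A2, a variant of H2A with a large extra domain, was lower in SCC154, with 2.5 ± 0.972 CPM in SCC154 post-hypoxic against 33.04 ± 3.45 CPM in FADU post-hypoxic and 2.68 ± 2.1 CPM in SCC154 non-hypoxic against 35.7 ± 6.99 CPM in FADU non-hypoxic libraries. Its log2 fold change was -3.74 and -3.72 (adjusted p = 1.28e-10 and 4.4e-11 by edgeR).

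Of 28 histone chaperones and assembly factors 27 were tested, and 7 lay above and 20 below 0 in SCC154 (median -0.08) with none called by edgeR. In FADU 10 were above and 17 below 0 (median -0.04). The assembly factor CHAF1A had the lowest p in SCC154, with -0.31 (adjusted p = 0.121 by edgeR). Between the lines 3 were higher and 13 lower in post-hypoxic cells, and 4 higher and 10 lower in non-hypoxic cells, against 34.8% higher and 34.9% lower of all genes in post-hypoxic and 34.5% each way in non-hypoxic cells. They include ASF1A, a chaperone of H3 with H4, with -2.69 and -2.09 (adjusted p = 1.17e-09 and 2.07e-08 by edgeR), and NASP, which binds free H3 with H4, with -1.07 and -1.09 (adjusted p = 1.91e-09 and 9.2e-10).

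Of 40 S-phase genes, 9 were above and 31 below 0 in SCC154 (median -0.13), and 12 above and 28 below 0 in FADU (median -0.06), with none called by edgeR in either line. The lowest p in SCC154 was that of POLA1, a subunit of the priming DNA polymerase, with -0.62 (adjusted p = 0.128 by edgeR), and in FADU that of TK1, thymidine kinase, with 0.79 (adjusted p = 0.145). The 40 genes summed to 4227 to 4884 CPM in SCC154 post-hypoxic and 4623 to 5268 CPM in SCC154 non-hypoxic libraries, and whether that goes with the histone values was not tested. Of 10 tested genes of cell cycle exit none passed within a line; between the lines 7 were higher in SCC154 and 1 lower in both states (of all genes 34.8% were higher in post-hypoxic and 34.5% in non-hypoxic cells), among them CDKN1A, an inhibitor of cyclin-dependent kinases, with 2.84 in post-hypoxic and 2.83 in non-hypoxic cells (adjusted p = 1.02e-09 and 2.05e-09 by edgeR).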

How the data were processed

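The data are whole-number read counts per gene symbol for 18 QuantSeq 3′ mRNA libraries, deposited by the authors in one table, not normalized and not pooled. The submitters' processing notes name the build hg38, the counter featureCounts 1.5.1, the aligner HISAT2 2.2.1, UMI-tools 1.1.5 for molecular identifiers, DESeq2, and for read quality and trimming FastQC 0.11.9 and Trimmomatic 0.39, without order or settings. Neither the annotation nor the strand setting is given in the sources used here.

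From these counts, 22591 of 41120 symbols had any count and 12291 passed filterByExpr of edgeR 4.0.16 in R 4.3.3. CPM used TMM-scaled library totals. One quasi-likelihood fit (glmQLFit, glmQLFTest) over the 4 groups, with 14 residual degrees of freedom and a common biological coefficient of variation of 0.148, gave all contrasts, with Benjamini-Hochberg adjustment over all 12291 genes and a threshold of 0.05. It was tested on simulated counts. DESeq2 1.42.0, limma 3.58.1 (voom), other scalings, no filter, replicate blocks and leaving out libraries were tried. A floor of 3 counts was used for groups at 0.

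Genes given library by library are any called within a line or in the interaction (there were 0), the 8 with the highest mean CPM and, per between-line contrast and direction, up to 5 of the largest called changes with a mean of at least 5 CPM. H2AC8, H2AC20, H2BC4, H2BC15, H2AC18, H2AC19, H4C13, H4C15, H3C6 and H3C10, the other tested genes, are given by mean. The genes and lists were chosen with earlier results of these data known. No pair of replicates agreed within sampling noise (chi-square over degrees of freedom of 1.77 to 10.7 in 32 pairs). Same-numbered FADU libraries deviated from their group means together (correlations of 0.18 to 0.45 in 4 pairs) and were taken as pairs from that check alone, since the labels state no shared origin. The block on that pairing called 0 histone genes in FADU. Sequences are from GENCODE release 29 and RefSeq on GRCh38.p14.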

Additional observations from a re-analysis of the deposited data

Results flagged for a closer look

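H1-2 in FADU non-hypoxic replicate 1 stood apart from its group, with 379.8 CPM against 306.8 to 318.4 CPM in the other 3 libraries. Its gap was 0.842 of the group's range, over Dixon's limit for 4 samples. This was the only such sample among 58 groups looked at, and chance marks about 1 in 20 groups.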

How the results depend on the processing

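Among the 14 genes given library by library no called direction reversed under any alternative run. Over all their alternatives, the SCC154 post-hypoxic minus non-hypoxic change passed in 16 fits where the reported one did not. Between the lines 11 post-hypoxic and 3 non-hypoxic fits lost the threshold, and 5 and 2 gained it. In SCC154, post-hypoxic minus non-hypoxic, the count of called histone genes was 0 in edgeR as reported and with upper-quartile or RLE scaling, only the libraries of the contrast, or DESeq2. It was 3 with no filter on low counts (H1-4, H4C3 and H1-2, all lower, of 65 tested), where 291 of all 22591 genes were called. Limma voom gave 1 (H1-2, adjusted p = 0.0461), with 131 of all genes called. A replicate block within each line gave 6, where 1052 of all 12291 genes were called against 93 as reported. The 6 were H2BC21, higher, and H4C3, H1-2, H1-4, H2AC20 and H2AC8, lower. A replicate block shared across the lines gave 2 (H2BC21 higher and H1-2 lower), with 243 of all genes called. Leaving out single libraries gave 0 to 3. Leaving out 2 SCC154 libraries together, replicate 3 of the post-hypoxic and replicate 1 of the non-hypoxic group, chosen after seeing the data, gave 1 (H1-2, adjusted p = 0.0324). The same-numbered SCC154 libraries had correlations of 0.03 to 0.4, were not taken as pairs, and 3 of 4 post-hypoxic libraries correlated best with their own number. In FADU, where the numbers were taken as pairs, it was also 3 of 4, with correlations of 0.18 to 0.45. The interaction gave 1 with no filter (H4C3), where 51 of all 22591 genes were called. It gave 2 with the replicate block within each line (H4C3 and H1-2), where 224 of all genes were called, and 0 in each fit without a library. The post-hypoxic line difference gave 28 with no filter (11 higher, 17 lower, of 65 tested), where 10106 of all 22591 genes were called. It gave 13 to 19 with single libraries left out. The non-hypoxic line difference gave 19 with no filter (11 higher, 8 lower, of 65 tested), where 9798 of all 22591 genes were called. It gave 13 to 16 with single libraries left out, and the FADU comparison gave 0 in every fit. Summed histone levels without single libraries were 1000.3 to 1216 CPM in SCC154 post-hypoxic, 1504 to 1554 CPM in SCC154 non-hypoxic, 1546 to 1630.1 CPM in FADU post-hypoxic and 1387 to 1569 CPM in FADU non-hypoxic libraries. The replicate block within each line cannot give the line differences and was not run for them. The causes of these shifts were not tested. At 1.65 to 2.5 counts per CPM, the 34 genes under 1 CPM are at the limit of detection.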
